A study of Mus musculus with 30 samples.

Results

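The comparison described here sets 5 tumours taken 7 days after a masked interleukin-12 against 5 taken 4 days after it, 10 of the 30 RNA-seq libraries of the study. The 10 libraries were chosen by their labels: treatment mXTX301, day 4 or day 7. Tumours came from MC38, a mouse colon carcinoma line, of which 0.5 M cells (M, mega) were placed under the skin of the right flank of female C57BL/6J mice aged 10 weeks. Treatment began once tumours measured 200 to 300 mm3 and consisted of mXTX301, a masked interleukin-12 active in mice, injected once into a vein at 0.39 mg/kg. Vehicle-treated tumours of both days (5 libraries each) gave the change over the same days without drug, and tumours of mice given an unmasked positive control at 0.03 mg/kg (5 libraries each) gave the change under the unmasked drug. Each library was made from polyadenylated RNA of whole tumour tissue of a mouse killed on that day, so that no tumour was measured on both days. All groups shared the line, strain, sex and age.

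Interleukin-12 is a cytokine of dendritic cells and macrophages that acts on natural killer (NK) cells and T cells through a receptor of the chains Il12rb1 and Il12rb2 and makes them release interferon-gamma. Interferon-gamma in turn acts on most cells: antigen-presenting MHC class I molecules and chemokines such as Cxcl9 are produced early, and MHC class II molecules follow through the transactivator Ciita. In tumours these cytokines are known for activating macrophages and T cells and for acting on blood vessels. A masked cytokine carries a blocking domain that proteases, which are abundant in tumours, can remove.

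Depth ranged from 48.3 to 85.2 M counts over the 30 libraries, with 56.5 ± 6.30 M in the day 4 and 58.4 ± 7.34 M in the day 7 mXTX301 group (mean ± SD, n = 5). Values below are CPM, counts of a gene per M counts of its library with scaling factors applied, given in the order of replicates 1 to 5. Differences between days are from edgeR's quasi-likelihood test with Benjamini-Hochberg adjustment over 15482 genes, called at an adjusted p under 0.05. The labels call the libraries replicates and say no more of cages or litters, so p-values measure the spread between these libraries. Libraries stood apart by their skin genes: the mean log2 CPM of 19 skin genes was -2.16, -2.70, 3.55, -2.67 and -2.97 at day 4 and 4.50, -2.65, 2.43, -2.93 and -2.39 at day 7. Day 4 replicate 3 and day 7 replicates 1 and 3 were high in these genes, among 8 such libraries of all 30; they are called skin-rich below, and counts were also made without them and in a fit with the skin level as a covariate (1372 genes higher and 1040 lower at day 7). No other test of the part of skin was made. Markers of the epithelium the line comes from ranged widely in level: in the 10 libraries Tjp1 read 85.8 to 137.2 CPM and Cdh1 1.35 to 7.58 CPM, Epcam reached 2.17 CPM and Vil1 0.401 CPM at most, Cdx2 had 0 counts, and Krt8 and Krt18 had at most 21 and 13 counts, both in day 7 replicate 5. Cdh1 and Epcam were highest in the skin-rich libraries, day 4 replicate 3 and day 7 replicates 1 and 3. Cdh1 had 455, 447 and 287 counts there and 78 to 115 in the other libraries. Epcam had 84, 128 and 30 counts there and 0 to 9 in the others. In whole tissue, fewer cells of a type and less RNA per cell cannot be told apart.

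Between day 4 and day 7 the treated tumours gained transcripts of antigen presentation through MHC class II (9 of 13 genes tested), of macrophages (10 of 19) and of blood vessels (12 of 19), and lost transcripts of the cell cycle (20 of 30). In all, 1220 genes were higher and 1022 lower at day 7, 14.5% of the genes tested (7.88% higher, 6.6% lower). The changes were mostly small, with a median size of 0.37 on the log2 scale: 373 of the higher genes and 28 of the lower ones differed at least 2-fold. In 556 cases among higher genes and 612 among lower ones, the 5 libraries of one day lay beyond all 5 of the other, 3.59% and 3.95% of the genes tested. In vehicle tumours over the same days 3 genes were higher (0.0194%) and 3 lower (0.0194%), together 0.0388% of the genes tested. The vehicle count was not firm. Its smallest adjusted p by edgeR was 0.0491, DESeq2 called 608 genes, and 213 were higher and 248 lower without the skin-rich libraries. The number of calls with mXTX301 depended on single libraries. It came to 207 higher and 326 lower without day 4 replicate 1, 266 and 424 without day 7 replicate 5, 355 and 503 without day 7 replicate 4, and 1764 and 1656 without day 4 replicate 3. The higher count was also 465, 436 and 716 without day 4 replicates 2, 4 and 5. Without the skin-rich libraries 1552 genes were higher and 1185 lower. Of the 110 genes called among those named by rule, 48 stayed called with each of the 10 libraries left out in turn. For each gene given below with its test that is outside these 48, the omissions that ended its call are given beside it.

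**Figure D1:**
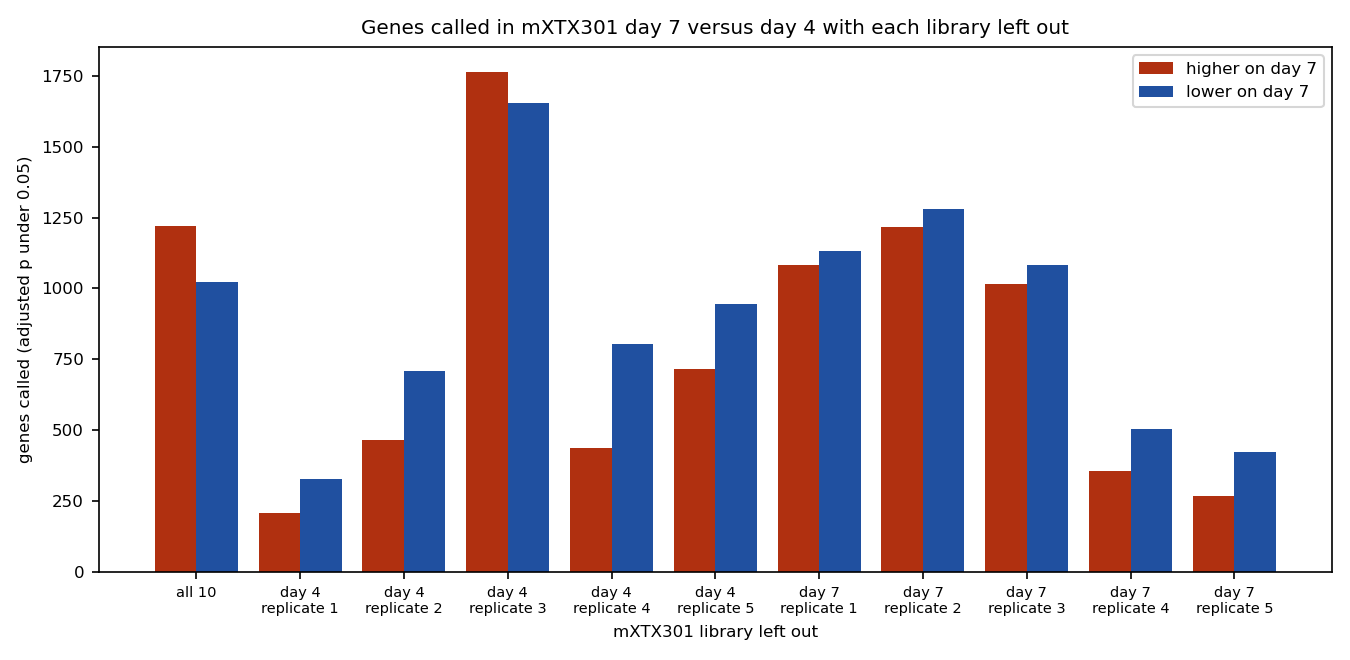
Number of genes called higher (red) and lower (blue) at day 7 than at day 4 in mXTX301 tumours with all 10 libraries and with each left out in turn (x axis, library left out; y axis, genes with an adjusted p under 0.05). With all 10 libraries 1220 genes were higher and 1022 lower; the higher count ranged from 207 without day 4 replicate 1 to 1764 without day 4 replicate 3.

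MHC class II genes, whose products show peptides to CD4 T cells, rose from day 4 to day 7. Of 13 tested members, 9 were higher and 0 lower, against 7.88% higher among all genes, 7 had groups that did not overlap upward (5.67% of all genes did so), and all 13 had a positive change; the median log2 change was 1.09 against 0.03 over all genes tested. H2-Aa, the alpha chain of the class II molecule I-A (chromosome 17, 34282744 to 34287823, minus strand, mm10), read 155, 216, 354, 145 and 242 CPM at day 4 and 499.8, 361, 574, 727 and 776 CPM at day 7. Every day 7 library lay above every day 4 library, and H2-Aa rose 2.64-fold (log2 change 1.40 ± 0.29 SE, adjusted p = 0.00571). Its partner H2-Ab1, the beta chain of I-A, read 149, 262, 388, 162 and 259.9 CPM at day 4 and 622, 408, 719, 895 and 929.8 CPM at day 7. The groups again did not overlap, and the rise was 2.92-fold (log2 change 1.55 ± 0.32 SE, adjusted p = 0.00571). Cd74, the invariant chain that guides class II molecules to the compartment where peptides are loaded, read 346, 482, 734, 351 and 544 CPM at day 4 and 1109, 787, 1226, 1533 and 1625 CPM at day 7. It rose 2.56-fold (log2 change 1.35 ± 0.28 SE, adjusted p = 0.00539) with no overlap. H2-DMb1, a chain of the H2-M complex that exchanges peptides on class II molecules, moved less, by 1.63-fold (log2 change 0.71 ± 0.14 SE, adjusted p = 0.0046), from 72.7, 61.5, 81.6, 63.0 and 76.7 CPM to 116, 91.0, 125, 129 and 120.3 CPM, again without overlap. Within day 4 replicate 1 or 4 was lowest for H2-Aa, H2-Ab1 and Cd74, and within day 7 replicate 2 was lowest for all 4 genes.

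In vehicle tumours the same 13 genes had a median log2 change of -0.19 over these days. H2-Ab1 averaged 53.3 ± 18.4 CPM at day 4 and 36.5 ± 9.67 CPM at day 7 with vehicle (SD, n = 5), and its time change with drug exceeded that with vehicle by 2.09 ± 0.45 (log2, SE; adjusted p = 0.0156). The corresponding differences were 2.04 (adjusted p = 0.0122) for H2-Aa, 1.90 (adjusted p = 0.0132) for Cd74 and 0.80 (adjusted p = 0.0245) for H2-DMb1, on the log2 scale. Of the 13 members, 6 were called higher in this difference, against 1.95% of all genes. Against vehicle of the same day, 32.2% of all genes were called at day 4 and 48.4% at day 7. Of the class II genes 8 of 13 members were higher at day 4 (16.2% of all genes) with a median log2 difference of 1.26, and 11 of 13 at day 7 (25.7% of all genes) with a median of 2.56. The transactivator Ciita, which switches class II genes on, read 22.5, 18.6, 34.1, 19.9 and 31.2 CPM at day 4 and 49.5, 32.1, 46.7, 45.4 and 46.5 CPM at day 7 and was 1.74-fold higher (log2 change 0.80 ± 0.25 SE, adjusted p = 0.0366); day 7 replicate 2 lay below day 4 replicate 3. Ciita was not called without day 4 replicates 1, 2 and 4 or day 7 replicates 1, 3, 4 and 5 in turn (adjusted p 0.061 to 0.109), with no low-count filter (0.0542), with the replicate block (0.0507) or without the skin-rich libraries (0.0741). Called members numbered 5 without day 4 replicate 1. Reads of H2-Eb1 and H2-Eb2, and of H2-DMb1 and H2-DMb2, can be split between near-identical copies.

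The promoters of class II genes show what these genes share in sequence. The 150 bases before the start of transcription are printed for 3 of them, from RefSeq (GRCm38.p6), 5′ to 3′ along the gene, with CCAAT or its reverse complement ATTGG in capitals; CCAAT is the core of the Y box of class II promoters. The windows are chr17:34287824-34287973 on the minus strand for H2-Aa, chr17:34305717-34305866 on the plus strand for H2-Eb1 and chr17:34153041-34153190 on the plus strand for H2-DMb1.
H2-Aa: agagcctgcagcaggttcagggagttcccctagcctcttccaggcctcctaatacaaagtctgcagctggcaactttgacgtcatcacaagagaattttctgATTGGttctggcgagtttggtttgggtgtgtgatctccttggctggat
H2-Eb1: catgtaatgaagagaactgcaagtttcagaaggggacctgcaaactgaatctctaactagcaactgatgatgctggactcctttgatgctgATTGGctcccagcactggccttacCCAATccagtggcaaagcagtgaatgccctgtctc
H2-DMb1: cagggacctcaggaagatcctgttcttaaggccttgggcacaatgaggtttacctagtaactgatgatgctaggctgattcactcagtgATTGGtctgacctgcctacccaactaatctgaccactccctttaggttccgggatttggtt
The element begins 48 bases before the start in H2-Aa, 61 in H2-DMb1, and 59 (ATTGG) and 35 (CCAAT) in H2-Eb1, a gene shown for its second element and chosen after its values were seen. CCAAT was present on either strand in 7 of the 10 class II promoters found in the table (70%), against 8047 of 32851 promoters of the same length (24.5%). TGACG, the core of the X2 box, was present in 1 of 10, against 13.3% of all promoters; it is the palindrome tgacgtca of H2-Aa, where both strands match. A match describes the letters only. H2-Ab1 and Ciita were not among the promoters matched.

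**Figure D2:**
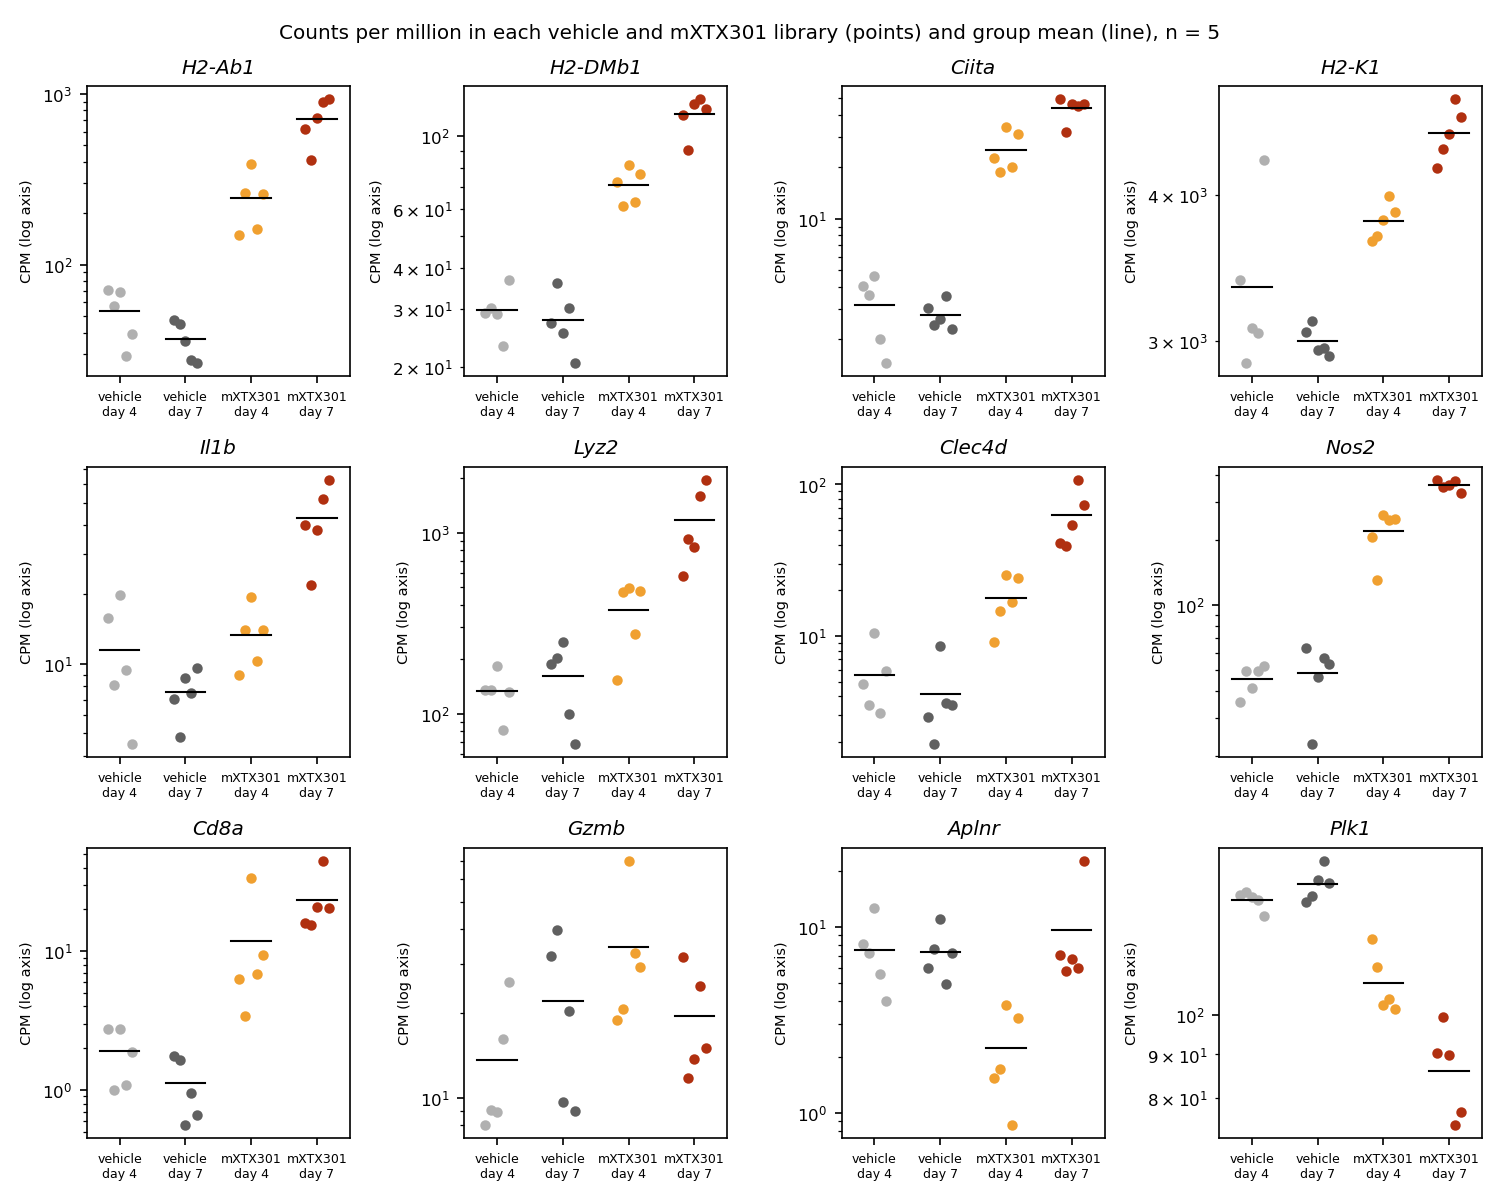
CPM (y axes, log scale) of 12 genes in each vehicle and mXTX301 library at day 4 and day 7 (points; black line, group mean; n = 5). H2-Ab1, H2-DMb1, Il1b, Lyz2 and Clec4d were higher in all 5 day 7 than in all 5 day 4 mXTX301 libraries, Plk1 lower, and Cd8a and Gzmb overlapped, with day 4 replicate 3 highest of its group.

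MHC class I genes, which show peptides to CD8 T cells, had smaller differences. Of 17 tested members 5 were higher (H2-K1, H2-D1, H2-T23, H2-M3 and Psmb8), against 7.88% of all genes, and 0 lower. The median log2 change was 0.16. Psmb8, a subunit of the immunoproteasome that cuts peptides for class I, read 380.1, 336, 363, 375 and 366 CPM at day 4 and 432, 450.1, 452, 456 and 438 CPM at day 7. It rose 1.22-fold (log2 change 0.29 ± 0.06 SE, adjusted p = 0.00451) without overlap, and more than with vehicle by 0.35 (adjusted p = 0.0193). H2-K1, a classical class I heavy chain, read 3655, 3692, 3808, 3988 and 3869 CPM at day 4 and 4214, 4379, 4513, 4828 and 4663 CPM at day 7 and rose 1.19-fold (log2 change 0.25 ± 0.08 SE, adjusted p = 0.0303). H2-K1 was not called without day 4 replicates 1, 2, 4 and 5 or day 7 replicates 3, 4 and 5 in turn (adjusted p 0.0609 to 0.115), with no low-count filter (0.0683) or without the skin-rich libraries (0.0779). With single libraries left out, the class I count was 1 without day 4 replicates 1, 2, 4 and 5 or day 7 replicates 3, 4 and 5 in turn; it was 1 with no low-count filter and 3 without the skin-rich libraries. These genes already stood above vehicle at day 4 (14 of 17 members, against 16.2% of all genes). They did so at day 7 (16 of 17, against 25.7% of all genes). Reads of H2-K1, H2-D1 and H2-Q4 can be split between copies.

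Interferon-gamma itself and most genes of its response were not called between the days. Ifng read 2.48, 3.44, 10.9, 3.46 and 5.59 CPM at day 4 and 7.26, 4.66, 8.79, 12.9 and 8.83 CPM at day 7; the ranges overlapped and the change was not called (log2 change 0.71 ± 0.46 SE, adjusted p = 0.292). Of 28 response genes, 3 were higher, 10.7% against 7.88% of all genes, and 0 were lower. Their median log2 change was 0.22. Serpina3f, a protease inhibitor gene of a family of near-identical copies, was 1.72-fold higher (adjusted p = 0.0222). Serpina3f was not called without day 4 replicates 1, 2 and 4 or day 7 replicates 4 and 5 in turn (adjusted p 0.0593 to 0.0782). The chemokine Cxcl9, which draws activated T cells, read 118, 156, 193, 157 and 201 CPM at day 4 and 228, 170.2, 265, 259 and 196 CPM at day 7 and was not called (log2 change 0.44 ± 0.22 SE, adjusted p = 0.169). Nor were Cxcl10 (log2 change -0.17 ± 0.16 SE, adjusted p = 0.497), the transcription factor Irf1 (log2 change -0.07 ± 0.07 SE, adjusted p = 0.533), the guanylate-binding protein gene Gbp2 (log2 change 0.23 ± 0.13 SE, adjusted p = 0.211) or Cd274, which encodes the checkpoint ligand PD-L1 (log2 change 0.42 ± 0.18 SE, adjusted p = 0.0967). Cd274 passed with the replicate block in the 10 libraries alone (adjusted p = 0.0332). Against vehicle 27 of the 28 response genes were higher at day 4 (16.2% of all genes), with a median log2 difference of 1.52. At day 7, 28 of 28 were higher (25.7% of all genes), with a median of 1.87. The median step between the days was smaller than either difference from vehicle. Of the response genes, the number called was 0 without day 4 replicates 1, 2 and 4 or day 7 replicates 4 and 5 in turn, 1 without day 7 replicate 1 and 5 without day 4 replicate 3. It was 1 with no low-count filter, 5 without the skin-rich libraries or with only the 10 libraries in the fit and 6 with the replicate block in the 10 libraries alone.

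Genes of the type I interferon response were mostly lower at day 7 in sign, with 1 call. Of 20 members 18 had a negative change, with a median of -0.30, against -0.20 for the same genes with vehicle. The difference from the change with vehicle was called for 0 of the 20. Over time 5% of members were called lower, against 6.6% of all genes. The only one called was Cmpk2, a mitochondrial nucleotide kinase. It read 136, 119, 99.1, 113 and 100.2 CPM at day 4 and 75.9, 102, 69.6, 61.5 and 71.6 CPM at day 7 and fell 1.49-fold (log2 change -0.58 ± 0.19 SE, adjusted p = 0.039). Cmpk2 was not called without day 4 replicates 1, 2 and 4 or day 7 replicates 3, 4 and 5 in turn (adjusted p 0.0593 to 0.112) or without the skin-rich libraries (0.0639). The count of lower members was 0 without the skin-rich libraries, 2 with a strict low-count filter, 4 by DESeq2, 11 with only the 10 libraries in the fit and 13 with the replicate block in the 10 libraries alone. With single libraries left out it was 0 without day 4 replicates 1, 2 and 4 or day 7 replicates 3, 4 and 5 in turn, 3 without day 4 replicate 3 and 6 without day 7 replicate 2.

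Of the chains of the interleukin-12 receptor, Il12rb1 rose and Il12rb2 was not called. Il12rb1, shared by the receptors for interleukin-12 and interleukin-23, read 121, 95.4, 124, 118 and 117 CPM at day 4 and 185, 156, 174, 161 and 127 CPM at day 7. Every day 7 library was above every day 4 library, the lowest being replicate 2 at day 4 and replicate 5 at day 7, and Il12rb1 rose 1.40-fold (log2 change 0.48 ± 0.12 SE, adjusted p = 0.0122). The rise exceeded that with vehicle by 0.65 (adjusted p = 0.029). Il12rb1 was not called without the skin-rich libraries (adjusted p 0.0711). Il12rb2, the chain that makes the receptor specific for interleukin-12, read 1.44, 1.44, 4.90, 1.97 and 2.58 CPM at day 4 and 2.04, 1.43, 3.52, 5.16 and 2.15 CPM at day 7 and was not called (log2 change 0.21 ± 0.39 SE, adjusted p = 0.741). Its change had the opposite sign without day 7 replicate 4 (log2 -0.13). Tyk2, the kinase bound to Il12rb1, was just past the threshold (log2 change 0.43 ± 0.15 SE, adjusted p = 0.0476). Tyk2 was not called without day 4 replicates 1, 2, 4 and 5 or day 7 replicates 1, 3, 4 and 5 in turn (adjusted p 0.0621 to 0.167), with RLE size factors (0.0505), with no low-count filter (0.0682), with the replicate block (0.0613), with the skin level as a covariate (0.051), with only the 10 libraries in the fit (0.0611) or with the replicate block in the 10 libraries alone (0.0741). Tbx21, the transcription factor of type 1 T cells, read 1.07, 1.86, 6.28, 1.64 and 2.40 CPM at day 4 and 3.95, 3.08, 4.34, 6.16 and 3.50 CPM at day 7, with day 4 replicate 3 highest of all 10, and was not called (log2 change 0.66 ± 0.39 SE, adjusted p = 0.237). Tbx21 was called without day 4 replicate 3 (2.38-fold, adjusted p = 0.0155) and without the skin-rich libraries (adjusted p = 0.0431). In all 2 of 17 genes of interleukin-12 and interleukin-18 signalling were higher, a share near the 7.88% of all genes, and 0 lower, with a median of 0.39. The count was 1 without day 4 replicates 1, 2, 4 and 5 or day 7 replicates 1, 3, 4 and 5 in turn and 5 without day 4 replicate 3, and 1 with RLE size factors, with no low-count filter, with the replicate block, with the skin level as a covariate, with only the 10 libraries in the fit or with the replicate block in the 10 libraries alone and 4 without the skin-rich libraries. Socs3, a feedback inhibitor of cytokine receptors listed here with early stress genes, read 77.4, 79.2, 101, 81.8 and 87.5 CPM at day 4 and 117, 111, 122, 115 and 163 CPM at day 7 and rose 1.47-fold (log2 change 0.56 ± 0.12 SE, adjusted p = 0.00673) without overlap; it was the only 1 of 18 early stress genes called. This 1 call was 5.56% of the early stress genes, against 7.88% higher among all genes. The early stress count was 2 without day 4 replicate 3, and 2 with the replicate block or by DESeq2 and 3 with only the 10 libraries in the fit or with the replicate block in the 10 libraries alone.

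T-cell genes varied widely within day 4. Cd8a, a chain of the co-receptor of cytotoxic T cells, read 6.33, 3.40, 33.7, 6.83 and 9.36 CPM at day 4 and 16.0, 15.5, 20.9, 44.5 and 20.5 CPM at day 7. Day 4 replicate 3 was above 4 of the 5 day 7 libraries, and the change was not called (log2 change 0.98 ± 0.49 SE, adjusted p = 0.17). Cd8a was called without day 4 replicate 3 (3.58-fold, adjusted p = 0.0073) and without the skin-rich libraries (adjusted p = 0.0143). Cd3e, part of the T-cell receptor complex, read 1.57, 1.75, 7.39, 2.19 and 2.33 CPM at day 4 and 4.29, 3.51, 4.68, 8.53 and 4.70 CPM at day 7 (log2 change 0.75 ± 0.40 SE, adjusted p = 0.191). Cd3e was called without day 4 replicate 3 (2.59-fold, adjusted p = 0.011) and without the skin-rich libraries (adjusted p = 0.0235). Cd4, the co-receptor of helper T cells and also present on some myeloid cells, read 1.01, 1.75, 1.98, 1.47 and 1.62 CPM at day 4 and 2.39, 3.10, 5.55, 3.60 and 5.59 CPM at day 7. It was the only 1 of 21 tested T-cell genes called, rose 2.58-fold (log2 change 1.37 ± 0.40 SE, adjusted p = 0.028) without overlap and exceeded its change with vehicle by 2.07 (adjusted p = 0.0382). Cd4 was not called without day 4 replicates 1, 2 and 4 or day 7 replicates 3, 4 and 5 in turn (adjusted p 0.0519 to 0.0941). The 1 call was 4.76% of the T-cell genes tested, against 7.88% higher among all genes. The median log2 change of the T-cell genes was 0.70, with 19 of 21 positive. Leaving out day 4 replicate 3, which was also skin-rich, gave 15 higher members, and leaving out the skin-rich libraries 14; the count was 3 by DESeq2 and 2 with a strict low-count filter or the skin covariate. Other omissions gave 3 without day 7 replicate 2 and 0 without day 4 replicates 1, 2 and 4 or day 7 replicates 3, 4 and 5 in turn. Against vehicle 16 of 21 were higher at day 4 (16.2% of all genes) and 19 of 21 at day 7 (25.7% of all genes).

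Genes of killing granules had no common direction. Gzmb, which encodes the protease granzyme B, read 19.0, 20.8, 69.7, 33.0 and 29.3 CPM at day 4 and 31.9, 11.8, 13.8, 25.1 and 15.1 CPM at day 7 and was not called (log2 change -0.82 ± 0.41 SE, adjusted p = 0.17). Prf1, which encodes the pore-forming protein perforin, read 11.1, 10.3, 55.3, 21.7 and 16.9 CPM at day 4 and 24.7, 10.9, 15.9, 25.0 and 16.6 CPM at day 7 (log2 change -0.31 ± 0.50 SE, adjusted p = 0.696), and its sign turned without day 4 replicate 3 (log2 0.30, 1.23-fold). Of 15 cytotoxic effector genes 8 had a negative change and 2 were called higher, 13.3% against 7.88% of all genes. These were Srgn, a granule proteoglycan of many blood cells, and Lamp1, a lysosomal membrane protein of most cells. Srgn rose 1.62-fold (adjusted p = 0.031) and Lamp1 1.23-fold (adjusted p = 0.0422). Srgn was not called without day 4 replicates 1, 2, 4 and 5 or day 7 replicates 4 and 5 in turn (adjusted p 0.0537 to 0.112). Lamp1 was not called without day 4 replicates 1, 2, 3, 4 and 5 or day 7 replicates 3, 4 and 5 in turn (adjusted p 0.0511 to 0.17) or with no low-count filter (0.07). The cytotoxic count was 0 without day 4 replicates 1, 2, 4 and 5 or day 7 replicates 4 and 5 in turn, 1 without day 7 replicate 3 and 5 without day 4 replicate 3, and 1 with no low-count filter and 4 without the skin-rich libraries. Against vehicle 10 of these 15 genes were higher at day 4 (16.2% of all genes), with a median log2 difference of 1.89. At day 7, 7 were higher (25.7% of all genes), with a median of 0.78. Between the days these genes had a median log2 change of 0.53 with vehicle and -0.31 with mXTX301. The difference between the 2 time changes was called for 0 of the 15. None of 13 tested NK-cell genes was called; Ncr1, an activating receptor of NK cells, averaged 1.35 ± 0.873 to 0.955 ± 0.459 CPM (log2 change -0.50 ± 0.48 SE, adjusted p = 0.487). Foxp3, the transcription factor of regulatory T cells, averaged 0.821 ± 0.251 to 0.555 ± 0.0885 CPM (log2 change -0.56 ± 0.42 SE, adjusted p = 0.368), and of 13 genes of that list Capg, an actin-capping protein of many cell types, was the only one called (log2 change 0.41 ± 0.10 SE, adjusted p = 0.00993). Capg was not called without day 4 replicate 1 or day 7 replicate 4 in turn (adjusted p 0.0534 to 0.0593). The 1 call was 7.69% of that list, near the 7.88% higher among all genes. Without the skin-rich libraries 2 members of that list were called. The inhibitory receptor gene Pdcd1, which encodes PD-1, read 3.71, 3.70, 18.8, 4.50 and 4.93 CPM at day 4 and 8.61, 7.16, 9.88, 13.6 and 8.34 CPM at day 7 (log2 change 0.41 ± 0.38 SE, adjusted p = 0.469). Pdcd1 was called without day 4 replicate 3 (2.23-fold, adjusted p = 0.0101) and without the skin-rich libraries (adjusted p = 0.0327).

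Macrophage genes rose. Of 19 tested members 10 were higher (7.88% of all genes) and 0 lower, all 19 had a positive change, and the median log2 change was 0.83. Lyz2, the lysozyme of myeloid cells (chromosome 10, 117277541 to 117282272, minus strand), read 154, 472, 492, 276 and 477 CPM at day 4 and 575, 917, 833, 1593 and 1945 CPM at day 7. The groups did not overlap, with day 4 replicate 1 lowest and day 7 replicate 5 highest, and Lyz2 rose 3.13-fold (log2 change 1.65 ± 0.40 SE, adjusted p = 0.011). Cd68, a lysosomal glycoprotein of macrophages, read 49.4, 70.2, 105, 68.8 and 80.4 CPM at day 4 and 109, 117, 132, 201 and 167 CPM at day 7 and rose 1.94-fold (log2 change 0.96 ± 0.22 SE, adjusted p = 0.00873) without overlap. Fcgr3, an activating receptor for antibody Fc parts, rose 2.16-fold (log2 change 1.11 ± 0.26 SE, adjusted p = 0.00919), from 34.2, 63.6, 70.9, 40.5 and 61.4 CPM to 80.3, 87.9, 101, 169 and 148 CPM, without overlap. Trem2, a lipid receptor of macrophages, was 2.05-fold higher (adjusted p = 0.0117). Trem2 was not called without day 4 replicate 1 (adjusted p 0.0556). Adgre1, which encodes the macrophage marker F4/80, was not called (log2 change 0.83 ± 0.31 SE, adjusted p = 0.0645). Adgre1 was called without day 4 replicate 3 (2.03-fold, adjusted p = 0.0272), without the skin-rich libraries (adjusted p = 0.0256) and by DESeq2 (adjusted p = 0.0331). The difference from the change with vehicle was called for 0 of the 19 members: it was 0.98 (adjusted p = 0.0618) for Cd68, 1.14 (adjusted p = 0.0639) for Fcgr3 and 1.37 (adjusted p = 0.128) for Lyz2. The macrophage count was 3 without day 4 replicate 1, 4 without day 7 replicate 5, 5 without day 4 replicate 4 or day 7 replicate 4 in turn and 16 without day 4 replicate 3, 17 without the skin-rich libraries and 16 by DESeq2. Against vehicle 12 of 19 were higher at day 4 (16.2% of all genes) and 18 of 19 at day 7 (25.7% of all genes).

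Genes of alternatively activated macrophages followed in part, with 5 of 18 higher (7.88% of all genes) and a median of 0.97. Stab1, a scavenger receptor, read 116, 125, 153, 112 and 154 CPM at day 4 and 199, 219.6, 226, 235 and 271 CPM at day 7 and rose 1.74-fold (log2 change 0.80 ± 0.19 SE, adjusted p = 0.0103) without overlap. Tgm2, a transglutaminase, rose 1.64-fold (log2 change 0.71 ± 0.16 SE, adjusted p = 0.00818) and more than with vehicle by 0.91 (adjusted p = 0.0271); day 7 replicate 2 lay below day 4 replicate 3. Arg1, which breaks down arginine, read 100.2, 142, 111, 106 and 151 CPM at day 4 and 164, 208, 240.0, 407 and 222 CPM at day 7 and rose 2.04-fold (adjusted p = 0.0293). Arg1 was not called without day 4 replicates 1, 2 and 4 or day 7 replicates 4 and 5 in turn (adjusted p 0.0507 to 0.119). Nos2, which makes nitric oxide from arginine, read 207, 131, 260.3, 247 and 252 CPM at day 4 and 379, 353, 361, 376 and 332 CPM at day 7 and rose 1.64-fold (adjusted p = 0.0241). Nos2 was not called without day 4 replicates 1 and 2 or day 7 replicates 4 and 5 in turn (adjusted p 0.0509 to 0.074) or without the skin-rich libraries (0.0615). Both arginine enzymes were thus higher at day 7, without overlap. The count of higher members of the alternatively activated list was 2 without day 4 replicate 1 or day 7 replicate 5 in turn and 3 without day 4 replicates 2 and 4 in turn. Of 16 monocyte genes Ly6i was the only one called: it read 3.88, 8.81, 8.06, 3.04 and 6.52 CPM at day 4 and 17.3, 9.77, 22.7, 24.5 and 18.3 CPM at day 7 and rose 3.05-fold (log2 change 1.61 ± 0.33 SE, adjusted p = 0.00515), beyond its change with vehicle by 1.76 (adjusted p = 0.0326). This 1 call was 6.25% of the monocyte genes, against 7.88% higher among all genes. The monocyte count was 2 with the replicate block, with only the 10 libraries in the fit or by DESeq2. Of 12 complement genes 5 were higher (7.88% of all genes) and 0 lower, with a median of 0.85 and 12 of 12 positive. The difference from the change with vehicle was called for 0 of the 12. C2, which encodes a component of the classical pathway, rose 1.67-fold (adjusted p = 0.0344). C2 was not called without day 4 replicates 1, 2 and 3 or day 7 replicates 4 and 5 in turn (adjusted p 0.0587 to 0.109), with no low-count filter (0.0517) or without the skin-rich libraries (0.0621). The complement count was 0 without day 4 replicate 1 or day 7 replicates 4 and 5 in turn, 1 without day 4 replicates 2 and 4 in turn and 2 without day 4 replicate 5. It was 1 with no low-count filter, 3 with only the 10 libraries in the fit or with the replicate block in the 10 libraries alone and 9 by DESeq2.

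Of 16 acute inflammatory cytokine genes 7 were higher (7.88% of all genes) and 0 lower at day 7. All 16 were positive, and the median log2 change was 0.77. Il1b, the inflammatory cytokine interleukin-1 beta (chromosome 2, 129364569 to 129371164, minus strand), read 8.97, 14.0, 19.4, 10.3 and 14.0 CPM at day 4 and 40.1, 21.9, 37.9, 51.9 and 62.5 CPM at day 7. All day 7 libraries lay above all day 4 libraries, and Il1b rose 3.21-fold (log2 change 1.68 ± 0.35 SE, adjusted p = 0.00574). With vehicle it averaged 11.5 ± 6.19 CPM at day 4 and 7.54 ± 1.83 CPM at day 7 (SD, n = 5), and the difference in time change was 2.29 ± 0.49 (log2, SE; adjusted p = 0.0156). Il1a, interleukin-1 alpha, read 0.433, 0.644, 2.12, 0.877 and 1.13 CPM at day 4 and 3.37, 2.65, 3.50, 9.53 and 5.12 CPM at day 7 and rose 4.61-fold (log2 change 2.20 ± 0.47 SE, adjusted p = 0.00636). Their antagonist Il1rn, which blocks the same receptor, read 38.0, 31.0, 56.9, 42.0 and 49.9 CPM at day 4 and 82.0, 62.6, 86.8, 127 and 117 CPM at day 7 and rose 2.18-fold (log2 change 1.13 ± 0.24 SE, adjusted p = 0.00673). Nlrp3, the sensor of the inflammasome that activates interleukin-1 beta, rose 2.26-fold (log2 change 1.18 ± 0.27 SE, adjusted p = 0.00883), with day 7 replicate 2 below day 4 replicate 3. Tnf, tumour necrosis factor, was near the threshold (log2 change 0.79 ± 0.26 SE, adjusted p = 0.0423). Tnf was not called without day 4 replicates 1, 2, 4 and 5 or day 7 replicates 1, 3, 4 and 5 in turn (adjusted p 0.0625 to 0.129), with no low-count filter (0.0557), with the replicate block (0.0539), with only the 10 libraries in the fit (0.0702) or with the replicate block in the 10 libraries alone (0.0597). The cytokine count was 4 without day 4 replicates 1 and 2 or day 7 replicates 4 and 5 in turn.

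Neutrophil genes rose in part, with 4 of 19 tested members higher (7.88% of all genes), 0 lower and a median of 0.82. Clec4d, a C-type lectin that senses microbial glycolipids, read 9.12, 14.6, 25.2, 16.7 and 24.0 CPM at day 4 and 41.1, 39.1, 54.2, 107 and 73.7 CPM at day 7. It rose 3.51-fold (log2 change 1.81 ± 0.40 SE, adjusted p = 0.00698) without overlap, and more than with vehicle by 2.24 ± 0.56 (log2, SE; adjusted p = 0.0272). Mmp8, the collagenase of neutrophil granules, read 1.32, 0.754, 1.38, 2.06 and 1.99 CPM at day 4 and 4.32, 2.96, 4.01, 11.8 and 9.04 CPM at day 7 and rose 4.27-fold (log2 change 2.10 ± 0.43 SE, adjusted p = 0.00515). Ngp, a neutrophil granule protein, had 0, 2, 3, 2 and 5 counts at day 4 and 121, 55, 126, 19 and 37 counts at day 7. Its fitted fold (27.7, adjusted p = 0.00178) rests on these few day 4 counts. Clec4e, the lectin Mincle, rose 2.49-fold (adjusted p = 0.0158). Clec4e was not called without day 4 replicate 1 or day 7 replicate 4 in turn (adjusted p 0.056 to 0.0642). S100a8, a calcium-binding protein abundant in neutrophils, averaged 1.67 ± 0.931 to 3.18 ± 1.65 CPM and was not called (log2 change 0.92 ± 0.58 SE, adjusted p = 0.273). S100a8 was called without the skin-rich libraries (adjusted p = 0.0371).

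**Figure D3:**
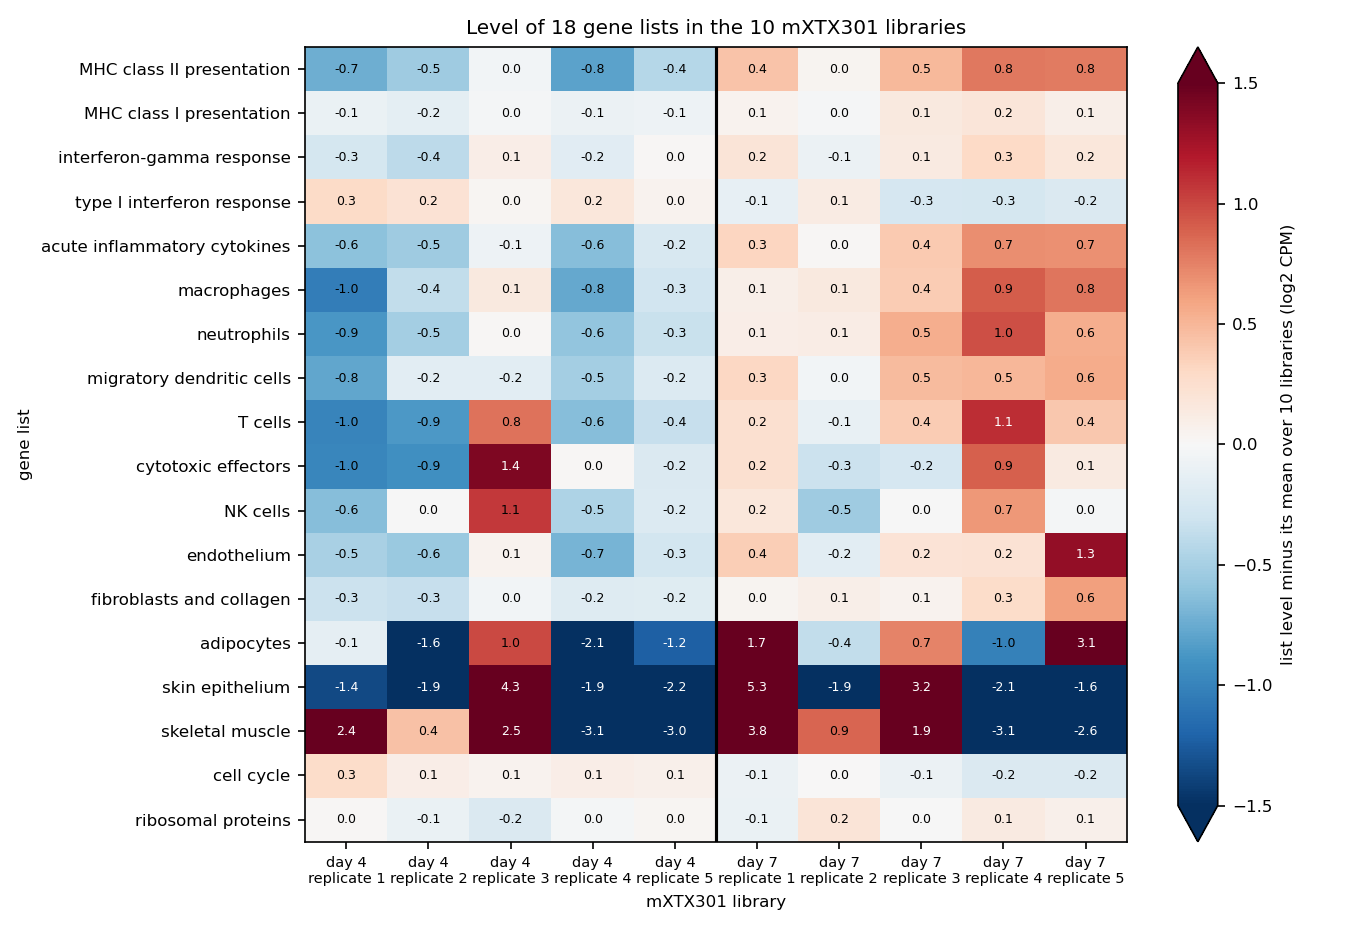
Level of 18 gene lists (rows) in the 10 mXTX301 libraries (columns), as mean log2 CPM of the members minus the mean over the 10 libraries (colour and number). The class II level was above its mean in the 5 day 7 libraries; skin was high in day 4 replicate 3 and day 7 replicates 1 and 3, and T-cell, NK-cell and cytotoxic levels were highest within day 4 in replicate 3.

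Matrix proteases of myeloid and stromal cells were higher in part, 4 of 13 members (7.88% of all genes) and 0 lower, with a median of 0.60. Mmp12, the macrophage elastase, read 25.3, 17.3, 34.5, 42.4 and 33.7 CPM at day 4 and 75.6, 58.9, 81.8, 173 and 108 CPM at day 7. The groups did not overlap; Mmp12 rose 3.24-fold (log2 change 1.70 ± 0.31 SE, adjusted p = 0.00418), and more than with vehicle by 1.61 (adjusted p = 0.0382). Mmp3, stromelysin, read 11.8, 19.1, 16.8, 14.9 and 26.2 CPM at day 4 and 27.1, 42.7, 50.9, 82.2 and 82.2 CPM at day 7 and rose 3.21-fold (adjusted p = 0.0167). Mmp3 was not called without day 4 replicate 1 or day 7 replicates 4 and 5 in turn (adjusted p 0.0537 to 0.064). The count of higher members was 2 without day 4 replicate 1 or day 7 replicate 5 in turn. Of 23 genes of programmed cell death 4 were higher (Casp1, Gsdmd, Ripk1 and Fas), 17.4% against 7.88% of all genes, and 0 lower. The higher count was 1 without day 4 replicates 1 and 4 or day 7 replicates 4 and 5 in turn. It was 2 without day 4 replicate 2. The death receptor Fas read 9.49, 9.20, 11.4, 10.97 and 12.2 CPM at day 4 and 16.6, 15.7, 15.4, 20.2 and 21.7 CPM at day 7 and rose 1.68-fold (log2 change 0.75 ± 0.18 SE, adjusted p = 0.0108). Its difference from the change with vehicle was 0.22 (adjusted p = 0.612).

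Dendritic-cell genes rose in part. Of 14 tested genes of migratory dendritic cells 6 were higher (7.88% of all genes) and 0 lower, with a median of 0.54. Cd40, the receptor through which helper T cells license antigen-presenting cells, read 38.5, 27.2, 37.5, 36.5 and 34.8 CPM at day 4 and 52.8, 47.6, 55.9, 51.1 and 55.5 CPM at day 7. It rose 1.51-fold (log2 change 0.59 ± 0.12 SE, adjusted p = 0.00574) without overlap and beyond vehicle by 0.76 (adjusted p = 0.0193). Cd83, a maturation marker, read 3.84, 5.08, 6.35, 2.83 and 4.44 CPM at day 4 and 8.46, 6.53, 7.75, 7.55 and 15.4 CPM at day 7 and rose 2.02-fold (adjusted p = 0.0135). Cd83 was not called without day 4 replicate 1 or day 7 replicate 5 in turn (adjusted p 0.0556 to 0.0767). Apol7c, of the apolipoprotein L family, had 1, 3, 48, 12 and 20 counts at day 4 and 192, 35, 200, 209 and 160 at day 7, and rose 10.5-fold (log2 change 3.39 ± 0.70 SE, adjusted p = 0.00561). The rise was 17.6-fold without day 4 replicate 3. The count of higher migratory members was 2 without day 4 replicate 1 or day 7 replicate 5 in turn and 3 without day 4 replicate 2 or day 7 replicate 4 in turn. Of 15 genes of conventional dendritic cells 4 were higher (Batf3, Flt3, Cd209a and Sirpa), against 7.88% of all genes, with a median of 0.59. Flt3, the growth factor receptor of their precursors, read 0.247, 0.515, 0.395, 0.203 and 0.627 CPM at day 4 and 0.661, 1.01, 0.883, 1.09 and 2.41 CPM at day 7 and rose 3.03-fold (adjusted p = 0.0255). Flt3 was not called without day 4 replicates 1 and 4 or day 7 replicates 4 and 5 in turn (adjusted p 0.051 to 0.119). Cd209a, which encodes a lectin of dendritic cells, had 179 counts in day 7 replicate 5 and at most 21 in the other 9 libraries; its fold was 9.81 and became 2.88-fold without day 7 replicate 5. Cd209a was not called without day 4 replicates 1, 2, 4 and 5 or day 7 replicate 5 in turn (adjusted p 0.0505 to 0.256). The count of conventional members was 0 without day 4 replicates 1 and 4 or day 7 replicate 5 in turn, 1 without day 4 replicate 2 or day 7 replicate 4 in turn, 2 without day 4 replicate 5 and 7 without day 4 replicate 3, and 2 with a strict low-count filter.

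B-cell markers were scarce: 9 of 17 list members were tested, and Ms4a1, which encodes the B-cell surface protein CD20, reached at most 13 counts in any library. The called members were Sdc1, a proteoglycan of plasma cells and epithelia, Xbp1, a transcription factor of the secretory pathway, and Pax5, the lineage factor of B cells, which was lower. They made up 33.3% of the tested members, against 14.5% of all genes called in either direction. Xbp1 rose 1.12-fold (adjusted p = 0.0427). Xbp1 was not called without day 4 replicates 1, 2, 4 and 5 or day 7 replicates 1, 2, 3, 4 and 5 in turn (adjusted p 0.0536 to 0.146), with RLE size factors (0.0547), with no low-count filter (0.102), with the replicate block (0.0539), without the skin-rich libraries (0.106) or with the replicate block in the 10 libraries alone (0.0587). Pax5 averaged 2.18 ± 0.461 to 1.23 ± 0.217 CPM and fell 1.77-fold (adjusted p = 0.0477). Pax5 was not called without day 4 replicates 1, 2, 4 and 5 or day 7 replicates 2, 3, 4 and 5 in turn (adjusted p 0.0528 to 0.132) or with no low-count filter (0.0542). Sdc1 read 144, 120.3, 117, 135 and 126 CPM at day 4 and 161, 158, 173, 162 and 168 CPM at day 7 and rose 1.28-fold (log2 change 0.35 ± 0.08 SE, adjusted p = 0.00891). Sdc1 was not called without the skin-rich libraries (adjusted p 0.0514). Of the B-cell list the higher count was 1 without day 4 replicates 1, 2, 4 and 5 or day 7 replicates 1, 3, 4 and 5 in turn and 4 without day 4 replicate 3, and 0 without the skin-rich libraries and 1 with RLE size factors, with no low-count filter, with the replicate block or with the replicate block in the 10 libraries alone. Cxcl13, the chemokine that draws B cells into follicles, read 0.598, 1.66, 0.966, 0.472 and 2.79 CPM at day 4 and 1.56, 5.24, 2.98, 7.31 and 11.8 CPM at day 7. It was 4.45-fold higher (adjusted p = 0.0457) with overlapping ranges. Cxcl13 was not called without day 4 replicates 1, 2, 3 and 4 or day 7 replicates 2, 4 and 5 in turn (adjusted p 0.0533 to 0.156) or with no low-count filter (0.0632). Ltbr, the lymphotoxin receptor of stromal cells, read 78.8, 81.0, 72.5, 78.9 and 77.0 CPM at day 4 and 84.6, 92.9, 91.9, 89.0 and 99.2 CPM at day 7 and rose 1.18-fold (log2 change 0.24 ± 0.05 SE, adjusted p = 0.00515) without overlap. Of 8 tested genes of lymphoid aggregates these were the 2 called, 25% higher against 7.88% of all genes. The aggregate count was 1 without day 4 replicates 1, 2 and 4 or day 7 replicates 4 and 5 in turn, and 1 with no low-count filter and 4 without the skin-rich libraries, with the replicate block in the 10 libraries alone or by DESeq2.

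Endothelial genes rose from a day 4 level below that of vehicle tumours. Of 19 members 12 were higher (7.88% of all genes) and 0 lower over time, 19 of 19 were positive, and the median log2 change was 0.74. Against vehicle, 10 were lower (16% of all genes) and 0 higher (16.2% of all genes) at day 4, with a median of -0.69. At day 7, 0 were lower (22.7% of all genes) and 3 higher, with a median of 0.13. These 3 of 19 were a smaller share than the 25.7% higher among all genes. Eng, the co-receptor endoglin of vessel cells, read 60.4, 54.2, 71.0, 61.6 and 59.2 CPM at day 4 and 97.2, 74.5, 86.1, 88.7 and 136 CPM at day 7 and rose 1.57-fold (log2 change 0.65 ± 0.13 SE, adjusted p = 0.00519) without overlap. Sox18, a transcription factor of endothelium, read 3.15, 2.74, 4.21, 2.18 and 2.86 CPM at day 4 and 8.78, 4.34, 5.50, 5.86 and 10.5 CPM at day 7 and rose 2.31-fold (log2 change 1.21 ± 0.25 SE, adjusted p = 0.00535). With vehicle Sox18 averaged 6.59 ± 1.68 CPM at day 4 and 7.47 ± 1.68 CPM at day 7. Sox17, its relative in arteries, read 0.454, 0.662, 0.819, 0.624 and 0.872 CPM at day 4 and 1.71, 1.14, 1.58, 1.45 and 3.54 CPM at day 7, rose 2.73-fold (log2 change 1.45 ± 0.32 SE, adjusted p = 0.00698) and differed from its change with vehicle by 1.96 (adjusted p = 0.0191). Aplnr, the apelin receptor of sprouting vessels, read 1.55, 1.73, 3.79, 0.861 and 3.22 CPM at day 4 and 7.11, 5.81, 6.71, 6.01 and 22.6 CPM at day 7 and rose 4.31-fold (log2 change 2.11 ± 0.48 SE, adjusted p = 0.00877); with vehicle it averaged 7.49 ± 3.26 CPM at day 4 and 7.35 ± 2.28 CPM at day 7. Aplnr was not called without day 7 replicate 5 (adjusted p 0.0507). The rise was 2.84-fold without day 7 replicate 5. Sox17 was the 1 member of 19 called in the difference from vehicle, in which 1.95% of all genes were higher.

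Day 7 replicate 5 held the highest endothelial level of the 10 libraries, at 4.75 mean log2 CPM, and also the highest fibroblast and adipocyte levels. The count of higher endothelial members was 3 without day 7 replicate 5, 5 without day 4 replicate 1, 6 without day 4 replicate 4 and 7 without day 4 replicate 2. It was 6 with only the 10 libraries in the fit and 7 with the replicate block in them. Adipocyte genes had the largest median of any list, 1.91, with 2 of 14 called higher (Fabp4 and Lipe), 14.3% against 7.88% of all genes. The adipocyte count was 0 without day 7 replicate 5, 1 without day 4 replicates 1, 2, 4 and 5 or day 7 replicate 4 in turn, 4 without day 7 replicate 2 and 9 without day 4 replicate 3. It was 0 with only the 10 libraries in the fit or with the replicate block in the 10 libraries alone, 6 with the replicate block, 7 with the skin level as a covariate or without the skin-rich libraries and 8 by DESeq2. Fabp4, a fatty acid carrier of fat cells and some vessel cells, read 12.4, 6.90, 16.4, 5.65 and 8.19 CPM at day 4 and 28.5, 14.1, 20.2, 17.0 and 96.7 CPM at day 7 and was 3.56-fold higher (adjusted p = 0.0163). Fabp4 was not called without day 7 replicate 5 (adjusted p 0.125), with only the 10 libraries in the fit (0.0523) or with the replicate block in the 10 libraries alone (0.0737). The rise was 1.99-fold without day 7 replicate 5. The adipocyte levels were 0.22, -1.24, 1.34, -1.80 and -0.88 at day 4 and 2.02, -0.03, 1.09, -0.66 and 3.43 at day 7, and their part in the endothelial rise was not tested. Of 22 fibroblast and collagen genes Fap, a protease of activated fibroblasts, was the only one called, 4.55% higher against 7.88% of all genes. The fibroblast count was 0 without day 4 replicate 1 or day 7 replicate 5 in turn and 3 without day 4 replicate 3, and 2 with the replicate block, 3 with the replicate block in the 10 libraries alone and 4 without the skin-rich libraries or by DESeq2. Fap read 0.990, 1.64, 2.25, 2.18 and 1.67 CPM at day 4 and 2.54, 4.19, 2.60, 3.96 and 8.92 CPM at day 7 and rose 2.54-fold (adjusted p = 0.0172). Fap was not called without day 4 replicate 1 or day 7 replicate 5 in turn (adjusted p 0.067 to 0.0986). Col1a1, the main fibrillar collagen, was not called (log2 change 0.49 ± 0.37 SE, adjusted p = 0.36).

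Cell-cycle genes fell. Of 30 members 20 were lower and 0 higher, against 6.6% lower among all genes, and 29 of 30 had a negative change, with a median of -0.24. Plk1, a kinase of mitosis, read 123, 114, 103, 104 and 102 CPM at day 4 and 90.3, 99.4, 89.8, 74.4 and 77.1 CPM at day 7. Every day 7 library lay below every day 4 library, and Plk1 fell 1.26-fold (log2 change -0.34 ± 0.08 SE, adjusted p = 0.00713). Kif23, a motor protein of cytokinesis, read 137, 117, 106, 116 and 113 CPM at day 4 and 97.2, 104, 90.9, 82.5 and 88.4 CPM at day 7 and fell 1.27-fold (log2 change -0.35 ± 0.07 SE, adjusted p = 0.00515) without overlap. Rrm2, the small subunit of the enzyme that makes deoxynucleotides, read 406, 334, 284, 299.8 and 302 CPM at day 4 and 237, 270.3, 256, 212 and 234 CPM at day 7 and fell 1.34-fold (log2 change -0.43 ± 0.09 SE, adjusted p = 0.00561). Mcm4, part of the replicative helicase, read 176, 143, 135, 145 and 146 CPM at day 4 and 127, 126, 126, 114 and 119 CPM at day 7 and fell 1.22-fold (log2 change -0.28 ± 0.07 SE, adjusted p = 0.0086). Mki67, the proliferation marker Ki-67, fell 1.29-fold (adjusted p = 0.0497). Mki67 was not called without day 4 replicates 1, 2 and 4 or day 7 replicates 4 and 5 in turn (adjusted p 0.0655 to 0.114) or without the skin-rich libraries (0.0642). With vehicle Plk1 averaged 136 ± 3.35 CPM at day 4 and 142 ± 6.12 CPM at day 7, and the difference from that change was -0.40 (adjusted p = 0.0322) for Plk1, -0.34 (adjusted p = 0.0439) for Kif23 and -0.33 (adjusted p = 0.039) for Mcm4. In all 10 of 30 members were called lower in this difference, against 3.04% of all genes. Against vehicle 22 were lower at day 4 (16% of all genes), with a median of -0.24. At day 7, 30 of 30 were lower (22.7% of all genes), with a median of -0.48. The count of members lower over time was 6 without day 4 replicate 1, 9 without day 7 replicate 5 and 10 without day 7 replicate 4; day 4 replicate 1 had the highest cell-cycle level of the 10 libraries.

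CCAAT also marks promoters of mitotic and replication genes. The same 150 bases are printed for the 3 cell-cycle genes with a table entry and the smallest p, to set beside the class II promoters. The windows are chr7:122159285-122159434 on the plus strand for Plk1, chr9:61946800-61946949 on the minus strand for Kif23 and chr12:24708104-24708253 on the plus strand for Rrm2.
Plk1: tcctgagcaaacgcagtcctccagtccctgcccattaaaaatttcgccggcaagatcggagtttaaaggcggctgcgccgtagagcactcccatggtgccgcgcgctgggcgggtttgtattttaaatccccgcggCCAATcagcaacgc
Kif23: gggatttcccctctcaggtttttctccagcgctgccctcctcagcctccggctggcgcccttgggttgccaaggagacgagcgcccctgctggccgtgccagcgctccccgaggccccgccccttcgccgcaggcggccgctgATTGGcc
Rrm2: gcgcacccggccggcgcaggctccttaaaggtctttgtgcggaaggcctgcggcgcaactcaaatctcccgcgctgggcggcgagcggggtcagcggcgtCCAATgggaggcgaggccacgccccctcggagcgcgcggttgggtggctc
The element begins 14 bases before the start in Plk1, 7 in Kif23 and 50 in Rrm2, nearer the start in Plk1 and Kif23 than in the class II genes above. It was present in 21 of 25 cell-cycle promoters (84%), so that the letters occur both in a group that rose and in a group that fell. TGACG was present in 6 of 25.

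**Figure D4:**
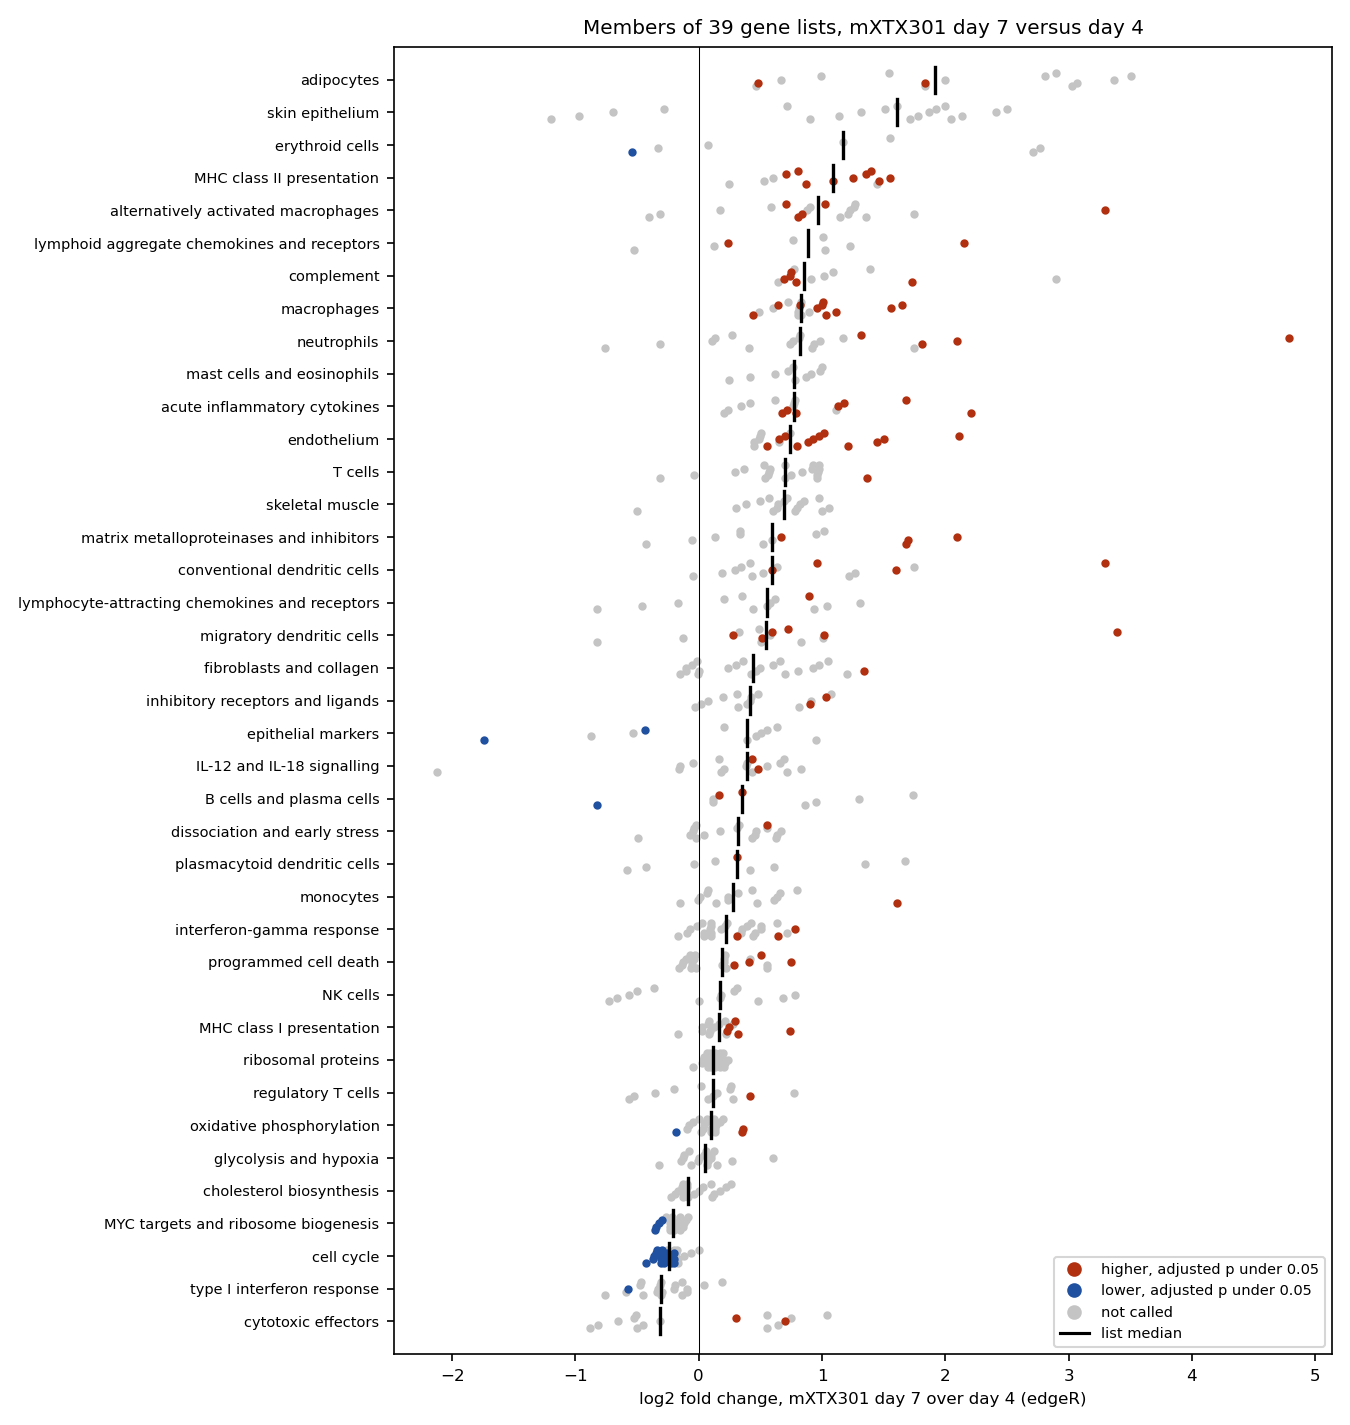
Log2 fold change of the tested members of 39 gene lists, mXTX301 day 7 over day 4 (x axis; points, genes; red higher, blue lower at an adjusted p under 0.05, grey not called; black bar, list median). Lists are ordered by median: adipocytes, skin and macrophage-related lists lie toward the right, with a class II median of 1.09, and type I interferon, cytotoxic and cell-cycle lists toward the left.

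Genes of MYC targets and ribosome production fell in part: 4 of 20 were lower (6.6% of all genes) and 20 of 20 were negative. Their median was -0.21, close to the -0.20 of the same genes with vehicle. Their count was 0 without day 4 replicate 1, 1 without day 7 replicates 4 and 5 in turn, 2 without day 4 replicate 2 and 7 without day 4 replicate 3 or day 7 replicate 2 in turn, and 9 with only the 10 libraries in the fit. Ribosomal protein genes (0 of 28 called), cholesterol synthesis (0 of 20) and glycolysis and hypoxia (0 of 18) showed no called member. Oxidative phosphorylation had 2 higher and 1 lower of 22, 13.6% called against 14.5% of all genes. Its higher count was 0 without day 4 replicate 1 or day 7 replicate 5 in turn and 1 without day 4 replicates 2 and 4 or day 7 replicate 4 in turn. Skin (0 of 19) and muscle genes (0 of 17) also had no called member, with medians of 1.61 and 0.69 that vary by library, and none of 10 mast-cell and eosinophil genes was called (median 0.77). The mast-cell and eosinophil count was 4 without day 4 replicate 3, and 1 with the replicate block in the 10 libraries alone, 2 with the replicate block and 3 without the skin-rich libraries.

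Slc39a10, which encodes a zinc importer (chromosome 1, 46807544 to 46925776, minus strand), read 119, 100.4, 74.9, 91.2 and 65.2 CPM at day 4 and 38.6, 45.3, 51.6, 35.5 and 40.9 CPM at day 7. Each day 7 library lay below each day 4 library, which the rule for the largest falls required, and Slc39a10 fell 2.13-fold (log2 change -1.09 ± 0.17 SE, adjusted p = 0.00178). With vehicle it averaged 106 ± 11.4 CPM at day 4 and 104 ± 20.2 CPM at day 7, and the difference from that change was -1.06 ± 0.24 (log2, SE; adjusted p = 0.0193). Hes7, a repressor of the Notch pathway, fell 2.02-fold (log2 change -1.01 ± 0.21 SE, adjusted p = 0.00519), from 12.2, 12.3, 7.15, 9.28 and 8.04 CPM to 3.80, 6.61, 6.38, 2.83 and 4.60 CPM. Klf8, a zinc-finger transcription factor, read 16.4, 17.2, 14.0, 16.2 and 16.3 CPM at day 4 and 10.6, 11.6, 11.6, 9.14 and 8.51 CPM at day 7; it fell 1.56-fold (log2 change -0.64 ± 0.10 SE, adjusted p = 0.00178) and differed from vehicle by -0.72 (adjusted p = 0.0103). Rps6ka6, a kinase of the RSK family, fell 1.63-fold (adjusted p = 0.00403), and Ppm1e, a phosphatase, 1.57-fold (adjusted p = 0.011). Lcor, a corepressor of nuclear receptors, fell 1.61-fold (adjusted p = 0.00574), and its difference from vehicle was -1.13 (adjusted p = 0.0103). Tjp1, which encodes the tight-junction protein ZO-1, read 137, 128, 116, 136 and 129 CPM at day 4 and 108, 99.7, 99.1, 86.2 and 85.8 CPM at day 7 and fell 1.35-fold (log2 change -0.43 ± 0.10 SE, adjusted p = 0.00738), against 110.4 ± 16.2 CPM at day 4 and 124 ± 15.7 CPM at day 7 with vehicle. The difference from that change was -0.60 (adjusted p = 0.0191). Vil1, the microvillus protein villin, read 0.0825, 0.202, 0.190, 0.203 and 0.401 CPM at day 4 and 0.0509, 0.0307, 0.0775, 0.107 and 0.0561 CPM at day 7 and was lower by 3.33-fold (log2 change -1.74 ± 0.58 SE, adjusted p = 0.0455) with overlapping ranges. Vil1 was not called without day 4 replicates 1, 2, 4 and 5 or day 7 replicates 1, 2, 3, 4 and 5 in turn (adjusted p 0.0582 to 0.119), with no low-count filter (0.0553), with the replicate block (0.0514) or without the skin-rich libraries (0.0986). Tjp1 and Vil1 were the 2 called of 11 tested epithelial markers, whose median log2 change was 0.39. Both were lower, 18.2% of the markers against 6.6% of all genes. Epor, the erythropoietin receptor, fell 1.46-fold (adjusted p = 0.00796) without overlap.

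The largest rises named by rule, outside the groups above, came from genes of low level. Mirt2, a long non-coding RNA of inflamed tissue, read 0.557, 0.552, 0.834, 0.523 and 0.819 CPM at day 4 and 2.12, 1.58, 2.52, 5.52 and 3.72 CPM at day 7 and rose 4.69-fold (log2 change 2.23 ± 0.51 SE, adjusted p = 0.00818). Orm1, an acute-phase protein, read 0.949, 0.423, 3.20, 2.14 and 1.13 CPM at day 4 and 7.16, 4.22, 6.74, 8.91 and 7.50 CPM at day 7 and rose 4.38-fold (log2 change 2.13 ± 0.39 SE, adjusted p = 0.00403). Prss46, a serine protease, read 0.433, 0.442, 0.834, 0.506 and 0.558 CPM at day 4 and 1.71, 1.81, 2.82, 3.01 and 2.51 CPM at day 7 and rose 4.25-fold (log2 change 2.09 ± 0.30 SE, adjusted p = 0.00178); with vehicle it averaged 0.253 ± 0.105 CPM at day 4 and 0.149 ± 0.0477 CPM at day 7, and the difference was 2.84 ± 0.44 (log2, SE; adjusted p = 0.00487). Mmp27, a further metalloproteinase, rose 4.45-fold (adjusted p = 0.00635). In each of these 4 genes all day 7 libraries lay above all day 4 libraries. The rule for the largest rises required this, so it is no further evidence of a rise. Sfrp2, a secreted antagonist of Wnt signals and the first by size under the rule, read 2.23, 2.81, 4.97, 4.42 and 6.03 CPM at day 4 and 6.82, 18.4, 11.2, 17.4 and 58.6 CPM at day 7 and rose 5.48-fold (log2 change 2.46 ± 0.74 SE, adjusted p = 0.0309). Sfrp2 was not called without day 4 replicates 1, 2 and 4 or day 7 replicates 4 and 5 in turn (adjusted p 0.0564 to 0.145). The rise was 3.26-fold without day 7 replicate 5. Selp, which encodes P-selectin of activated vessels and platelets, read 0.701, 1.32, 1.48, 0.523 and 1.83 CPM at day 4 and 2.98, 3.13, 2.56, 1.88 and 16.2 CPM at day 7 and rose 4.56-fold (adjusted p = 0.0165). Selp was not called without day 4 replicate 1 or day 7 replicate 5 in turn (adjusted p 0.0627 to 0.143). The rise was 2.23-fold without day 7 replicate 5. Trf, the iron carrier transferrin, rose 3.73-fold (adjusted p = 0.00926); the value was 2.39-fold without day 7 replicate 5. Trf was not called without day 7 replicate 5 (adjusted p 0.0604). In Sfrp2, Selp and Trf the highest value of the 10 was that of day 7 replicate 5.

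Over all genes, the time change with mXTX301 differed from that with vehicle for 302 genes upward and 470 downward, 4.99% of those tested. Of the 2242 genes called over time with drug, 486 were also called in this difference, and 1039 had the opposite sign with vehicle. The 2 comparisons share the mXTX301 libraries. A difference could also come from vehicle alone: Pcdhb16, a clustered protocadherin, read 2.68, 2.52, 4.74, 3.68 and 2.07 CPM at day 4 and 4.21, 1.82, 2.73, 2.92 and 3.01 CPM at day 7 with drug (log2 change -0.10 ± 0.29 SE, adjusted p = 0.84) and averaged 2.48 ± 0.633 CPM at day 4 and 6.31 ± 2.75 CPM at day 7 with vehicle, a difference of -1.45 (adjusted p = 0.0427). The sign of its change with drug turned without day 4 replicate 3 or day 7 replicate 2 (log2 0.09 and 0.02). The vehicle comparison itself held 2932 genes at an unadjusted p under 0.05, and DESeq2 called 309 higher and 299 lower there.

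**Figure D5:**
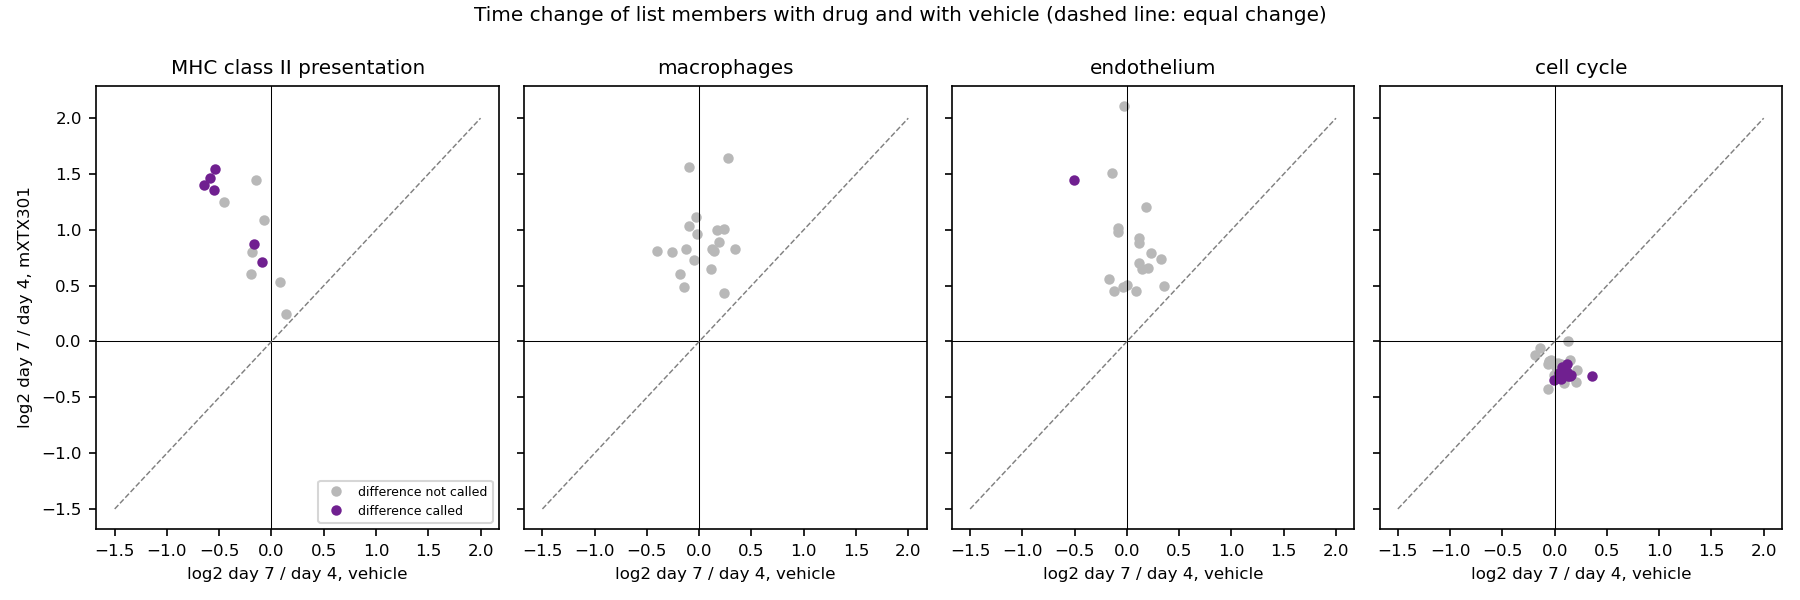
Log2 change from day 4 to day 7 of the members of 4 gene lists with vehicle (x axis) and with mXTX301 (y axis); purple points were called in the difference, and the dashed line marks equal change. Class II members lie high on the y axis and mostly left of 0 on the x axis with 6 of 13 called, all 19 macrophage (0 called) and all 19 endothelial members (1 called) lie above the line, and 29 of 30 cell-cycle members lie below 0 on the y axis, with 10 of 30 called.

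With the unmasked control 2230 genes were higher and 1779 lower at day 7 than at day 4, 25.9% of the genes tested. The difference between the time changes of the 2 drugs was called for 0 genes by edgeR, with 1796 genes at an unadjusted p under 0.05 and a smallest adjusted p of 0.258. DESeq2 called 7 upward and 5 downward (1890 at an unadjusted p under 0.05), and a fit of only the 4 drug groups called 234 and 132. The same class II genes had a median log2 change of 0.77 with the unmasked drug against 1.09 with mXTX301, macrophage genes 1.02 against 0.83, and cell-cycle genes -0.23 against -0.24. H2-Ab1 averaged 237 ± 73.1 CPM at day 4 and 589.6 ± 232 CPM at day 7 with the unmasked drug (SD, n = 5). The doses of the 2 drugs differed, and a p that misses the threshold does not show that they act alike.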

How the data were processed

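The authors deposited raw counts per gene for 30 libraries. The submitters' processing notes list cutadapt and FastQC 0.11.9, without a role. They further name the aligner STAR 2.7.10a and the counter HTSeq 0.11.1. Also listed are edgeR 3.34.0 under R 4.1.0, and the build mm10. Counting settings and strandedness are not given in the sources used here, so antisense and overlapping genes cannot be told apart. A deposited table of normalized values was not used. Of 24557 entries 5 repeated symbols were dropped and 15482 genes passed edgeR's expression filter by group.

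Counts were normalized by TMM factors in edgeR 4.0.16 (limma 3.58.1, R 4.3.3) and fitted with glmQLFit and glmQLFTest over all 30 libraries in 6 groups, with 24 residual degrees of freedom and a common biological coefficient of variation of 27.28%. All 6 groups thus shared an estimate of the spread. Differences in time change were contrasts of the same fit, and p-values were adjusted over all genes tested. List levels are mean log2 CPM with a prior count of 2. Depth was 48.3 to 85.2 M counts (M, mega) per library.

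Genes were named by rule: the 12 largest rises and 12 largest falls among called genes whose groups did not overlap and whose mean CPM reached 1, the 4 called members of each of 39 lists with the smallest p, a panel of 34 genes, and the 5 largest differences from vehicle in each direction. The comparison, lists and panel were chosen with earlier results of these data known. Gene positions and promoters came from RefSeq (GRCm38.p6).

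Replicate numbers in the labels are shared between the days, with no litter or batch named. Over 2000 genes, same-numbered libraries deviated together from their group means (r 0.337, 0.373, 0.611, 0.558 and 0.617, mean 0.499, against -0.115 for other pairs), so the block was run as an alternative. Centring each group on its own mean largely fixes the value for other pairs. It is therefore no independent baseline. The other alternatives were DESeq2 1.42.0, RLE factors, other count filters, a skin covariate, the skin-rich libraries left out, a fit of only the groups compared, and each library left out. On simulated data for mXTX301 day 7 versus day 4 (15350 genes), 74% of 50 genes raised 1.5-fold were recovered. So were 88% of 100 genes raised or lowered 2-fold. Recovery of 1.5-fold falls was not counted. Among unchanged genes 13 were called. Simulated counts were drawn independently for each library, without the skin or replicate structure of the data. A few results are not reported here.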

Additional observations from a re-analysis of the deposited data

Results flagged for a closer look

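Single libraries stood apart from the other 4 of their group by Dixon's criterion in 13 of 146 groups of 5 values scanned. The criterion's rate of about 1 in 20 holds for independent, normally distributed values. The values scanned were list levels and CPM of related genes in the same libraries, so the 13 cannot be set against that rate. In day 4 replicate 3 the skin level was 3.55 mean log2 CPM (the others -2.97 to -2.16). The same library had Cd8a at 33.7 CPM (3.4 to 9.36), Cd3e at 7.39 CPM (1.57 to 2.34), Gzmb at 69.7 CPM (19.0 to 33.0), Prf1 at 55.3 CPM (10.3 to 21.7), Pdcd1 at 18.8 CPM (3.70 to 4.93) and Tbx21 at 6.28 CPM (1.07 to 2.40). Day 4 replicate 1 was low in genes of alternatively activated macrophages, at 2.55 mean log2 CPM (3.54 to 3.82), and high in cell-cycle genes, at 7.52 (7.30 to 7.35). Il12rb1 was low in day 4 replicate 2, at 95.4 CPM (117 to 124), and Ciita in day 7 replicate 2, at 32.1 CPM (45.4 to 49.5). Day 7 replicate 4 had Cd3e at 8.53 CPM (3.51 to 4.70) and Cd8a at 44.5 CPM (15.5 to 21).

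For 38 of the named genes reported here the time change with mXTX301 differed from that with vehicle by the test of the difference. On the log2 scale, genes of antigen presentation had differences of 2.09 for H2-Ab1, 2.04 for H2-Aa, 1.90 for Cd74, 0.80 for H2-DMb1, 0.401 for H2-K1 and 0.35 for Psmb8. Myeloid and inflammatory genes had 4.98 for Ngp, 4.84 for Cd209a, 2.38 for Flt3, 2.29 for Il1b, 2.24 for Clec4d, 1.76 for Ly6i, 1.64 for Cd83, 1.61 for Mmp12, 1.44 for Il1rn, 0.906 for Tgm2, 0.888 for Ccl5 and 0.76 for Cd40. Others with a positive difference were Prss46 at 2.84, Fabp4 at 2.23, Cd4 at 2.07, Sox17 at 1.96, Fap at 1.68, Il12rb1 at 0.653, Ndufa2 at 0.61 and Capg at 0.537. Negative differences were -2.10 for Cilp, -1.45 for Pcdhb16, -1.13 for Lcor, -1.12 for Hap1, -1.06 for Slc39a10, -0.993 for Ppm1e, -0.80 for Utp14b, -0.725 for Klf8, -0.605 for Tjp1, -0.40 for Plk1, -0.338 for Kif23 and -0.329 for Mcm4. Reads of Utp14b can be shared with its near-identical copy Utp14a and with the gene it overlaps.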

How the results depend on the processing

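Between days, 1220 genes were higher and 1022 lower with mXTX301. The higher count was 806 with no low-count filter and 207 to 1764 with 1 library left out; the lower count was 1819 with only the groups compared in the fit and 326 to 1656 with 1 library left out. The difference from vehicle (302 higher, 470 lower) came to 595 and 788 without the skin-rich libraries and 600 and 874 by DESeq2; its higher count was 162 with no low-count filter and 176 with only the groups compared. Its ranges with 1 library left out were 48 to 437 and 146 to 803. The vehicle comparison (3 and 3) gave 0 and 0 with RLE factors, with no filter and with only the groups compared, 100 and 86 with a strict filter, 5 and 9 with the skin covariate, 213 and 248 without the skin-rich libraries, 309 and 299 by DESeq2, and 0 to 536 and 0 to 539 with 1 library left out. The difference from the unmasked drug (0 and 0) gave 234 and 132 with only the groups compared, 7 and 5 by DESeq2, and 0 to 0 with 1 library left out. Log2 changes turned sign for Prf1 (0.21 without the skin-rich libraries, -0.51 to 0.30 with 1 library left out) and, with 1 library left out, for Pcdhb16 (-0.28 to 0.087), Il12rb2 (-0.13 to 0.60) and Il10 (-0.10 to 0.45). The causes were not tested.

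With the replicate block 1209 genes were higher and 987 lower with mXTX301, and 54 and 32 with vehicle. Of 136 named genes the block ended the call of 7, Tyk2, Xbp1, C1ra, Ndufs1, Vil1, Ciita and Tnf (adjusted p 0.0507 to 0.0617 under edgeR's block fit), and changed no other call. A block with only the 10 mXTX301 libraries, chosen after seeing the data, gave 1214 and 1431. The median of all genes moved by 0.03 on the log2 scale with TMM and 0.02 with RLE. Depth limits genes of few counts such as Ngp, Cd209a and Apol7c.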
